A study of Mus musculus with 7 samples.

Results

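The 10 genes described here encode the TAM receptor tyrosine kinases Axl, Mertk and Tyro3, their ligands Gas6 and Pros1, the scavenger receptors Cd36, Msr1 and Scarb1, the bridging protein Mfge8 and the engulfment receptor Megf10. They were taken by gene symbol from a table of 55401 genes. Each of the 10 symbols matched 1 row, and all 10 genes passed the filter on low counts. RNA was sequenced from microglia of the dorsal hippocampus of C57BL/6 mice aged 6 to 8 weeks. Every mouse had received the virus AAV-RAM-Cre in dorsal dentate gyrus, which expresses Cre recombinase from a promoter responsive to neuronal activity. In addition the mice received AAV-Dio-EYFP, which carries a Cre-dependent fluorescent protein (4 libraries, called EYFP), or AAV-Dio-Atg7-Flag, which carries a Cre-dependent tagged autophagy gene (3 libraries, called ATG7). The manipulated cells are therefore neurons that had been active, whereas the RNA came from cells enriched with CD11b beads. The labels do not say whether a library is 1 mouse or a pool, so p-values measure the spread between libraries.

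Microglia clear dead cells, synapses and debris by recognising phosphatidylserine on the outer face of the membrane. Gas6 and protein S (Pros1) bind this lipid through a domain rich in gamma-carboxyglutamate. At the same time each binds some or all of the TAM receptors, whose kinase activity drives engulfment and restrains inflammatory signalling. In microglia Mertk is known as the receptor of the resting state, and Axl as one that is induced by interferon and other inflammatory stimuli. Mfge8 bridges phosphatidylserine to integrins, Megf10 is an engulfment receptor best known from astrocytes, and Cd36, Msr1 and Scarb1 bind oxidised or modified lipids and lipoproteins.

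The regions upstream of Axl and Mertk are shown because these genes are the pair of TAM receptors known from microglia and had different values in the comparison below. Each run is the 250 bases before the RefSeq start on GRCm38.p6, on the gene's strand, with matches to any of 5 searched motifs in capitals.
Axl, chr7:25788734-25788983, minus strand: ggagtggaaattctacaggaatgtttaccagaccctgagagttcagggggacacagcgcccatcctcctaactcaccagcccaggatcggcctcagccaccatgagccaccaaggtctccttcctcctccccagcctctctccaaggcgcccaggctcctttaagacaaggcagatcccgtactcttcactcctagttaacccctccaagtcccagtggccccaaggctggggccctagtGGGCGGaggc
Mertk, chr2:128698665-128698914, plus strand: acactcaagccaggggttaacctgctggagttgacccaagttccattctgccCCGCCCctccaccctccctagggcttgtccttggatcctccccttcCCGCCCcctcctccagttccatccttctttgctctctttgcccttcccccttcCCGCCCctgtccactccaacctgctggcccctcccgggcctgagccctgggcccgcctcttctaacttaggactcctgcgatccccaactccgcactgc
The motifs were searched on both strands: GAAANNGAA (the core of the interferon-stimulated response element), TTCNNNGAA (STAT element), TGANTCA (AP-1 element), GGGCGG (Sp1 box) and CACGTG (E-box). The Axl window held 1 Sp1 box, beginning 10 bases before the start, and the Mertk window held 3, on the opposite strand. An Sp1 box was present in 32.7% of all 32851 windows of this length. The letters of the other 4 motifs were not in either window, and they were present in 7.13% (GAAANNGAA), 7.02% (TTCNNNGAA), 6.75% (TGANTCA) and 6.02% (CACGTG) of all windows. RefSeq entries were matched for 7 of the 10 genes, and among those 7 the Pros1 window alone held a STAT element, TTCCAGGAA, beginning 92 bases before the start. These matches describe the letters in the windows and not binding.

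Total counts lay between 35934210 and 55217119 per library. Each of 12 microglial marker genes was detected, and their summed level was 23342 to 28899 CPM (the count scaled to the library size, here with TMM factors) across all libraries. Choroid plexus RNA was also abundant: its 12 markers summed to 55913 to 73761 CPM in EYFP and 47368 to 62272 CPM in ATG7. Summed astrocyte markers reached 522 to 906 CPM, endothelial and mural markers 671 to 1386 CPM, border macrophage markers 1402 to 1739.7 CPM, oligodendrocyte lineage markers 255 to 588 CPM, and neuronal, blood leukocyte and fibroblast markers at most 184 CPM each, and no list had a gene at 0 in all libraries. The summed level of each list overlapped between groups. Of the 12 blood leukocyte markers none passed (edgeR), but 5 had an unadjusted p under 0.05, and 4 did not overlap between groups, all higher in ATG7, where 6.33% of all genes were: Plac8 (log2 fold change 1.45), Trbc2 (1.77), Nkg7 (1.53) and Cd3e (1.35). Means in ATG7 were 8.78 CPM for Plac8 and at most 2.17 CPM for the other 3, and the list's sum was 51.7, 65.4 and 184 CPM in ATG7 1 to 3 against 66.5 to 110 CPM in EYFP. Over the whole leukocyte list, fitted values were positive in 7 of the 12 markers and negative in 5. The library labelled EYFP 3 had 939 CPM of Xist, the transcript of the inactive X chromosome, against 0.151 to 0.574 CPM in the other 6 libraries, although the series describes the mice as male. Without it the log2 fold changes of the 9 genes other than Axl ran from -0.42 (Tyro3) to 0.20 (Pros1), each with the sign it had with it, and none passed (edgeR). The Atg7 gene averaged 35.6 ± 1.68 CPM over the 4 EYFP libraries and 34.9 ± 2.76 CPM over the 3 ATG7 libraries (± SD, here and in all means that follow), which does not check the labels because the transgene was directed at neurons.

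None of the 10 genes passed the test between ATG7 and EYFP by the quasi-likelihood test of edgeR at an adjusted p under 0.05 (Benjamini-Hochberg, over the 19199 genes tested). Of all tested genes 0.755% passed, 0.688% as higher and 0.0677% as lower. By the other tools run, DESeq2 called 1 of the 10, Axl, where it called 3.03% of all genes, and limma-voom called 0, where it called 1.08%. At an unadjusted p under 0.05, 2 of the 10 genes were below the threshold, Axl and Tyro3, where 2300 of the 19199 genes (12%) were. The groups did not overlap in 2 of the 10, Axl (higher) and Gas6 (lower), where 11.2% of all genes did not overlap (6.33% higher and 4.91% lower). Fitted values were positive in 3 genes and negative in 7, with a median log2 fold change of -0.12 against -0.0037 over all genes. In bulk RNA, fewer cells of a type and less RNA per cell cannot be told apart.

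**Figure D1:**
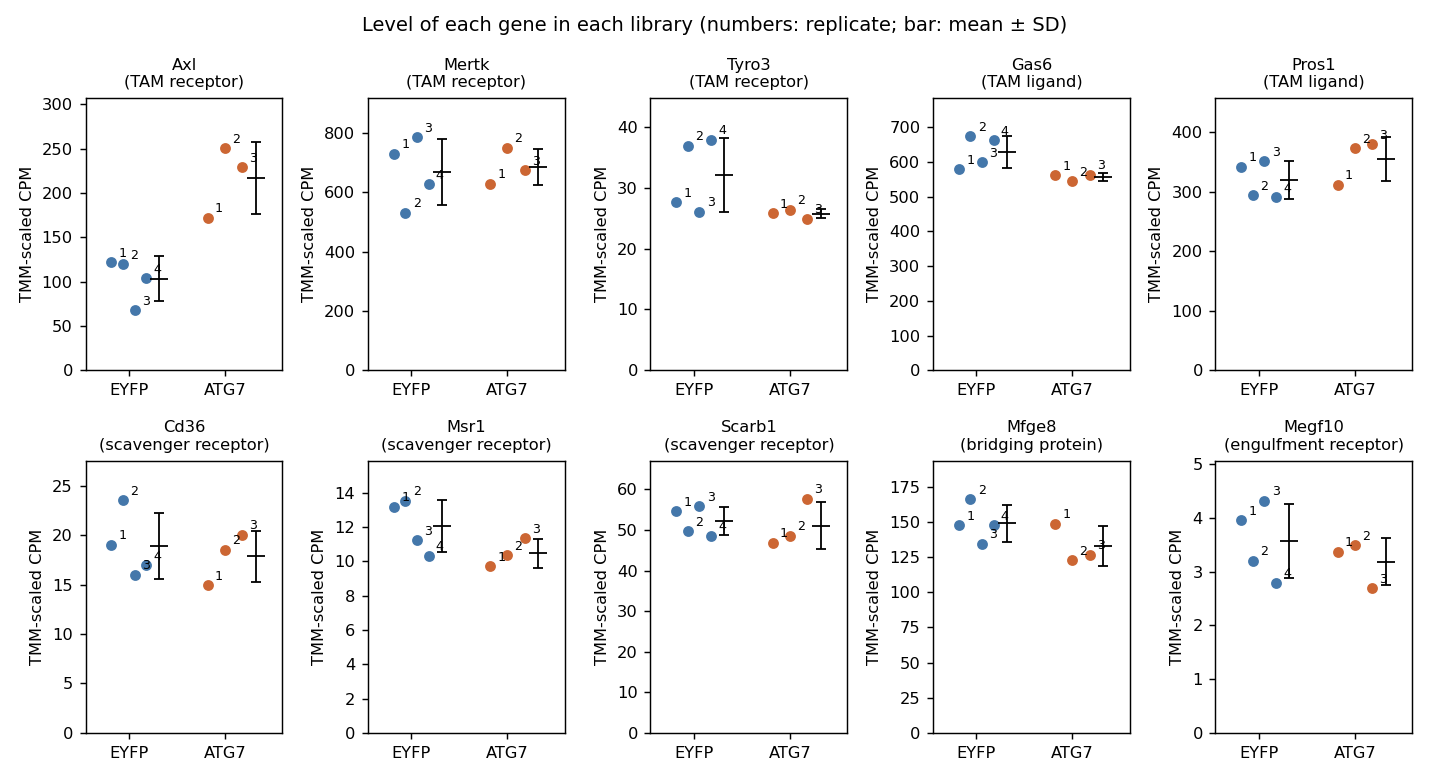
TMM-scaled CPM (vertical axes, starting at 0) of the 10 genes in each EYFP and ATG7 library, with replicate numbers beside the points and mean ± SD as bars. Axl lies between 172 and 250.3 CPM in ATG7, above the 67.4 to 122 CPM of EYFP, and the other genes overlap between groups except Gas6.

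Axl (ENSMUSG00000002602, chromosome 7, 25757273 to 25788705, GRCm38) was the gene of the set with the largest fitted difference. It stood at 122, 119.7, 67.4 and 104 CPM in the libraries EYFP 1 to 4, against 172, 250.3 and 229 CPM in the libraries ATG7 1 to 3. Every ATG7 library was above every EYFP library, and EYFP 3 was the lowest of the 7. The means were 103 ± 25.2 CPM over 4 EYFP libraries and 217 ± 40.4 CPM over 3 ATG7 libraries. The fitted ratio was 2.11-fold, with a 95% interval of 1.52 to 2.92, or 1.07 ± 0.207 (SE) on the log2 scale. Its absolute value exceeded that of 98.1% of the genes tested, but the adjusted p was 0.0692 (edgeR quasi-likelihood test), so Axl did not pass. Without EYFP 3 the log2 fold change was smaller, 0.91, and passed (edgeR adjusted p = 0.0107). Over all 15 alternatives the log2 fold change lay between 0.91 and 1.22 and the adjusted p between 3.77e-06 and 0.266, with Axl passing in 3 of them, without EYFP 3 (0.871% of all genes called), with DESeq2 (3.03%) and with a filter at a mean of 1 CPM (1.02%). The blood leukocyte markers named above (Plac8, Trbc2, Nkg7 and Cd3e) were also higher in ATG7, and their part in the value of Axl was not tested.

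Mertk (ENSMUSG00000014361, chromosome 2, 128698956 to 128802894) was present at several times the count of Axl in every EYFP library and overlapped between groups. It was at 731, 532, 787 and 629 CPM in the libraries EYFP 1 to 4, against 629.8, 751 and 676 CPM in the libraries ATG7 1 to 3. EYFP 2 and EYFP 3 were the lowest and the highest of all libraries, so the EYFP range spanned the ATG7 range. The log2 fold change was 0.035, with a 95% interval of -0.25 to 0.32 (edgeR adjusted p = 0.951), and its sign turned when EYFP 2 or ATG7 2 was left out. The interval runs from a fold of 0.841 to 1.25. EYFP 3 was highest in both Mertk and summed microglial markers. EYFP 2 and ATG7 1 had the lowest marker sums, at 23518 and 23342 CPM, while EYFP 2 and EYFP 4 had the least Mertk. ATG7 3 had the next highest marker sum, 28500.5 CPM, but less Mertk than EYFP 1 and ATG7 2. The part of microglial marker level in the spread of Mertk was not tested.

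Tyro3, the TAM receptor best known from neurons, was the least abundant of the 3 receptors. It was at 27.7, 37.0, 26.1 and 38.0 CPM in the libraries EYFP 1 to 4, against 25.9, 26.4 and 24.9 CPM in the libraries ATG7 1 to 3. EYFP 2 and 4 stood above the rest, while EYFP 1 and 3 lay close to the ATG7 libraries and EYFP 3 was inside their range. On the log2 scale the difference was -0.32 ± 0.131 (SE), with an edgeR adjusted p of 0.353. Without EYFP 3 it was -0.42 (edgeR adjusted p = 0.194).

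Of the ligands, Gas6 (ENSMUSG00000031451, chromosome 8, 13465374 to 13494490) was at 579, 674, 599.8 and 663 CPM in the libraries EYFP 1 to 4, against 563, 545 and 563 CPM in the libraries ATG7 1 to 3. The ATG7 libraries were close to each other and all below the EYFP libraries, the nearest of which was EYFP 1. Means were 629 ± 46.8 CPM over 4 EYFP libraries and 557 ± 10.5 CPM over 3 ATG7 libraries, with a log2 fold change of -0.18, a 95% interval of -0.36 to 0.0097 and an edgeR adjusted p of 0.450. Gas6 and Tyro3 were the 2 genes of the set with the most similar profiles over the 7 libraries (Euclidean distance between standardised log2 CPM of 0.929, against 1.64 for the next pair, Cd36 and Msr1). Both were highest in EYFP 2 and EYFP 4, which also had the highest summed choroid plexus markers, 73761 and 67173 CPM. ATG7 1 had the next highest sum, 62272 CPM, but was below EYFP 1 and EYFP 3 in both genes. All 12 choroid plexus markers had negative fitted values, with a median log2 fold change of -0.27, and none passed. Of the 12, 5 had an unadjusted p under 0.05 (edgeR), where 12% of all genes did. The groups did not overlap in 2, Aqp1 and Slc4a5, both lower in ATG7, where 4.91% of all genes were. The part of choroid plexus RNA in the values of Gas6 and Tyro3 was not tested.

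Pros1 (ENSMUSG00000022912, chromosome 16, 62854307 to 62929346), the protein S gene, was at 342, 294, 351 and 291 CPM in the libraries EYFP 1 to 4, against 312, 373 and 379.8 CPM in the libraries ATG7 1 to 3. ATG7 2 and 3 were the highest libraries, and ATG7 1 lay inside the EYFP range. The log2 fold change was 0.15 with a 95% interval of -0.072 to 0.38 (edgeR adjusted p = 0.620).

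**Figure D2:**
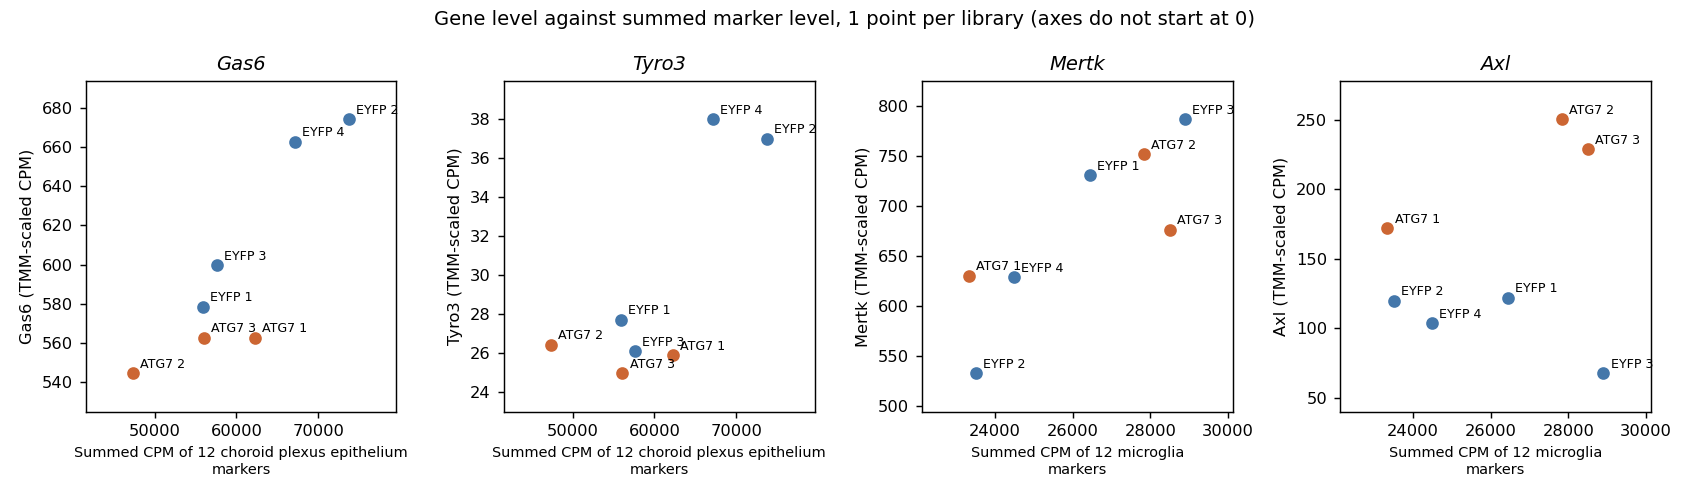
TMM-scaled CPM of Gas6, Tyro3, Mertk and Axl (vertical axes) against the summed CPM of 12 choroid plexus or 12 microglial markers (horizontal axes), with 1 point per library. EYFP 2 and 4 are highest in both Gas6 and choroid plexus markers, and EYFP 3 is highest in both Mertk and microglial markers. ATG7 1 is next in choroid plexus markers but below EYFP 1 and 3 in Gas6. ATG7 3 is next in microglial markers but below EYFP 1 and ATG7 2 in Mertk. The ATG7 libraries are above the EYFP libraries in Axl, and ATG7 1 is the lowest ATG7 library in both Axl and microglial markers. EYFP 3, the highest library in microglial markers, is the lowest in Axl.

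Because no scaling factor enters a ratio of 2 counts from the same library, the receptors and the ligands were also compared within libraries. These ratios reuse the counts behind the values above, so they are no separate evidence. The counts of Axl were 0.167, 0.225, 0.0857 and 0.165 of those of Mertk in the EYFP libraries (1 to 4), and 0.273, 0.333 and 0.339 in the ATG7 libraries (1 to 3). The groups did not overlap, and EYFP 3 was the lowest library. The log2 ratio averaged -2.72 ± 0.587 over 4 EYFP libraries and -1.67 ± 0.172 over 3 ATG7 libraries, and these means were 1.05 apart (exact permutation p = 0.0571, two-sided, and 0.114 adjusted over the 2 ratios). The smallest p that the 35 splits allow is 0.0286. On the linear scale the difference was 0.154 and reached that smallest p (exact permutation p = 0.0286, not adjusted over the 2 ratios). Before adjustment, the side of the threshold therefore depended on the scale. Without EYFP 3 the difference in log2 ratio was 0.77, in a design of 3 against 3 that cannot go below an exact permutation p of 0.1.

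The ratio of Gas6 to Pros1 counts was 1.69, 2.30, 1.71 and 2.28 in the EYFP libraries (1 to 4), against 1.81, 1.46 and 1.48 in the ATG7 libraries (1 to 3). EYFP 2 and 4 had the highest ratios, and ATG7 1 lay above EYFP 1 and 3. The difference in log2 ratio was -0.32 (exact permutation p = 0.171, two-sided, also after adjustment), and without EYFP 3 it was -0.39 (p = 0.2). The SD of the log2 ratio was 0.247 over 4 EYFP and 0.171 over 3 ATG7 libraries, and the groups overlapped.

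**Figure D3:**
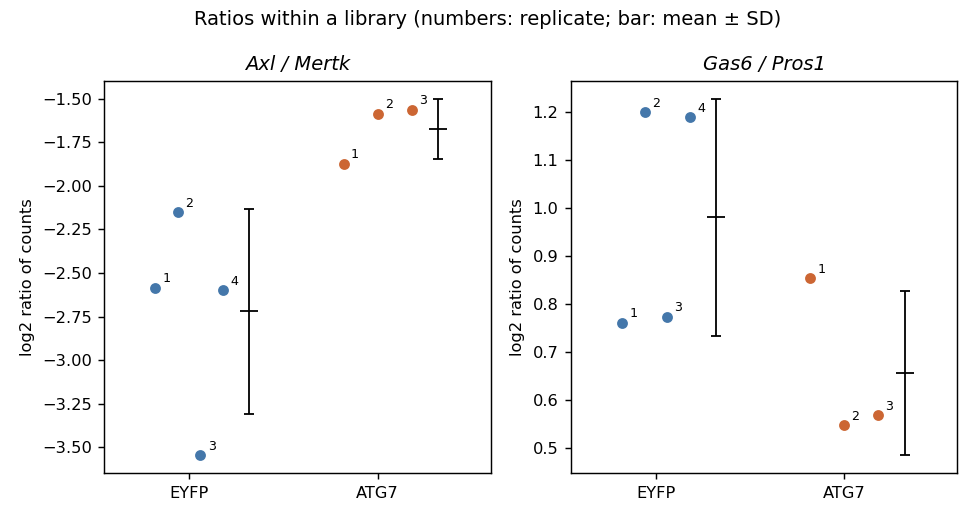
Log2 ratio of the counts of Axl to Mertk and of Gas6 to Pros1 (vertical axes) in each library of the EYFP and ATG7 groups, with replicate numbers and mean ± SD. The Axl to Mertk ratio is higher in all 3 ATG7 libraries than in any EYFP library, and the Gas6 to Pros1 ratio overlaps between groups.

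The scavenger receptors had low levels and overlapped between groups. Cd36, which takes up oxidised lipoproteins and fatty acids, was at 19.0, 23.5, 16.0 and 16.9 CPM in the libraries EYFP 1 to 4, against 14.9, 18.5 and 20.0 CPM in the libraries ATG7 1 to 3. Both ends of its range were single libraries, EYFP 2 and ATG7 1, and leaving out either turned the sign of the log2 fold change of -0.080 (edgeR adjusted p = 0.884). Msr1, the class A receptor for modified lipoproteins, ranged from 10.3 to 13.5 CPM in EYFP and from 9.69 to 11.3 CPM in ATG7, with EYFP 1 and 2 above all other libraries. Its log2 fold change was -0.21 with a 95% interval of -0.48 to 0.063 (edgeR adjusted p = 0.564). Scarb1, the receptor for high-density lipoprotein, averaged 52.2 ± 3.56 CPM over 4 EYFP libraries and 51.1 ± 5.83 CPM over 3 ATG7 libraries. The highest Scarb1 library was ATG7 3, at 57.7 CPM, and the lowest was ATG7 1, at 46.9 CPM, so the ATG7 range enclosed the EYFP range. Its log2 fold change was -0.032 (edgeR adjusted p = 0.932), and the sign turned without ATG7 1 or ATG7 2.

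Mfge8 was at 148, 166, 134 and 148 CPM in the libraries EYFP 1 to 4, against 149, 123 and 127 CPM in the libraries ATG7 1 to 3. EYFP 2 was the highest library, and ATG7 2 and 3 were below all EYFP libraries while ATG7 1 was not. The log2 fold change was -0.17 with a 95% interval of -0.37 to 0.040 (edgeR adjusted p = 0.540). Megf10 had 114 to 195 counts per library. Its level averaged 3.57 ± 0.695 CPM over 4 EYFP libraries and 3.19 ± 0.435 CPM over 3 ATG7 libraries (log2 fold change -0.16, edgeR adjusted p = 0.814), and its 95% interval of -0.60 to 0.27 was the widest among the genes other than Axl. Without EYFP 3, the 9 genes other than Axl did not pass either, with log2 fold changes between -0.42 and 0.20 and edgeR adjusted p from 0.194 to 0.994.

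Levels of different genes were compared per kilobase of annotated exon. In EYFP the order of the mean level was Gas6 (247 CPM per kilobase), Mertk (154), Pros1 (78.1), Mfge8 (31.7), Axl (20.5), Scarb1 (6.14), Cd36 (5.26), Tyro3 (5.19), Msr1 (1.90) and Megf10 (0.463). Scarb1 and Cd36, and Cd36 and Tyro3, overlapped in their ranges over the 4 EYFP libraries, and the other neighbours did not. Axl was below Mfge8 in all 4 EYFP libraries and above it in all 3 ATG7 libraries, where their means were 43.1 and 28.3 CPM per kilobase. All exons of a gene enter its length, so a gene with long exons that are rarely used is understated on this scale. Gas6 overlaps Tmem255b on the opposite strand. Mertk overlaps the antisense gene Gm14011 and, on its own strand, the small nucleolar RNA gene Gm23172, and Scarb1 overlaps Gm42633 on its own strand. The strand setting of the counting is not given, and these neighbours had mean levels of 6.27, 0.468, 2.79 and 0.016 CPM.

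**Figure D4:**
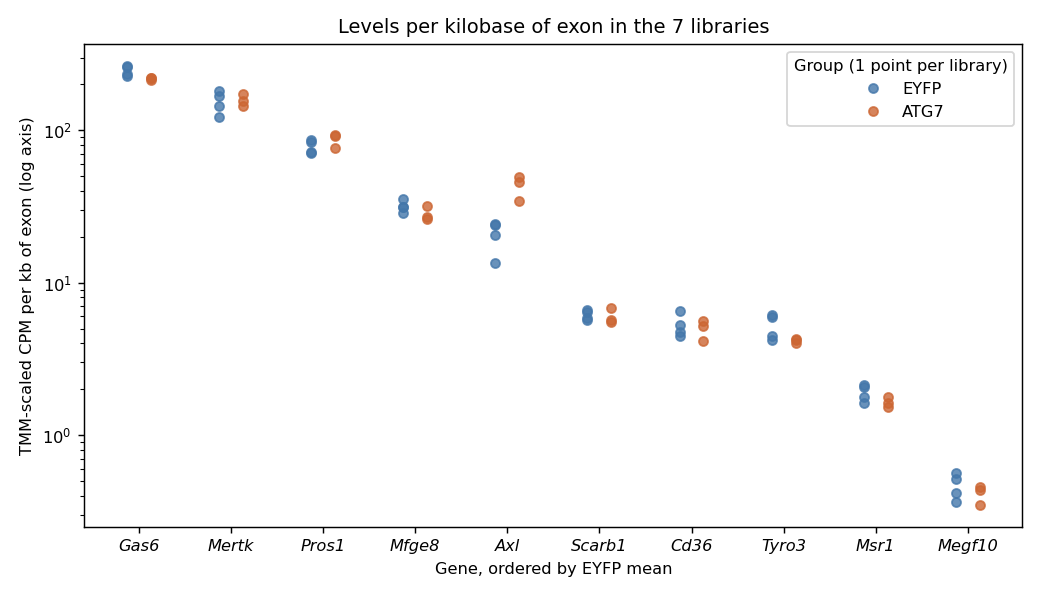
TMM-scaled CPM per kilobase of exon (vertical log axis) of the 10 genes, ordered by their EYFP mean, with 1 point per library. Gas6, Mertk and Pros1 lie highest, Megf10 lowest, and Axl passes Mfge8 between the EYFP and the ATG7 libraries.

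The genes nearest to Axl in profile were Cd72, Relb, Oasl1, Phf11b and Ifit1, by the distance between standardised log2 CPM over the 7 libraries among 15032 genes with a mean of at least 1 CPM. Their distances ran from 0.185 for Cd72 to 0.293 for Ifit1. A profile close to that of Axl is by construction higher in ATG7 and lowest in EYFP 3, so the values of these 5 genes are a description and support nothing about Axl. Cd72, a C-type lectin receptor, averaged 11.98 ± 2.57 CPM over 4 EYFP and 25.6 ± 4.32 CPM over 3 ATG7 libraries, a log2 fold change of 1.10. The log2 fold changes were 0.50 for Relb, 1.95 for Oasl1, 1.10 for Phf11b and 1.33 for Ifit1. For Mertk the nearest genes were Dip2b, Nlrp3, Ctc1, Sall3 and Zcchc14, at distances from 0.288 to 0.479. Their log2 fold changes lay between -0.0037 for Zcchc14 and 0.075 for Sall3, near that of Mertk as their choice fixes.

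The 10 genes were set beside 78 other genes of dead-cell uptake in 5 lists, of which 75 passed the filter. Among these, 3 were higher in ATG7 at an adjusted p under 0.05 and 0 were lower, where 0.755% of all genes were called. The blood leukocyte markers Plac8, Trbc2, Nkg7 and Cd3e were higher in ATG7, as given above, and their part in these values was not tested. The lists were written with earlier results of these data known, so this count is no independent evidence. The count was 0 without ATG7 2 (edgeR), 1 without ATG7 3 and 2 without EYFP 4. In these settings 0.144%, 0.154% and 0.158% of all genes were called. DESeq2 called 6, where it called 3.03% of all genes. Of 19 other phosphatidylserine receptors and bridging proteins, only Cd300lf passed. This inhibitory receptor rose from a mean of 5.87 ± 0.851 CPM over 4 EYFP libraries to 12.8 ± 2.05 CPM over 3 ATG7 libraries, or by 1.13 ± 0.150 (SE) in log2 (edgeR adjusted p = 0.00982), and the edgeR adjusted p was 0.0569 without ATG7 2 and 0.0140 without EYFP 3 (1.06). The list's median log2 fold change was 0.024, with 12 positive and 7 negative values. Of the 19 genes, 3 had an unadjusted p under 0.05 (edgeR), where 12% of all genes did. The groups did not overlap in 2, Cd300lf and Itgb5, both higher in ATG7, where 6.33% of all genes were. Thbs1 (0.34), Itgb5 (0.29), Trem2 (0.089), Stab1 (-0.035), Lrp1 (-0.051) and Adgrb2 (-0.75) were among those that did not pass.

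Of 12 other scavenger receptors, Clec7a, the beta-glucan receptor, and Cxcl16, a transmembrane chemokine that also binds oxidised lipoprotein, rose. Clec7a went from a mean of 35.8 ± 5.83 CPM (4 EYFP libraries) to 64.7 ± 3.53 CPM (3 ATG7 libraries), or by 0.85 in log2 (edgeR adjusted p = 0.0105), with an adjusted p of 0.0537 without ATG7 2, 0.0729 without ATG7 3 and 0.00303 without EYFP 3. Cxcl16 went from a mean of 33.9 ± 5.41 CPM to 54.3 ± 7.43 CPM, or by 0.68 in log2 (edgeR adjusted p = 0.0420), and did not pass without EYFP 3, EYFP 4, ATG7 2 or ATG7 3, where the edgeR adjusted p was 0.0570, 0.135, 0.186 and 0.206. The median of this list was 0.075. Fitted values were positive in 8 of the 12 genes and negative in 4. An unadjusted p under 0.05 was found in 4 (edgeR), where 12% of all genes had one. The groups did not overlap in 3, all higher in ATG7, where 6.33% of all genes were. Olr1 had the largest log2 fold change of the list, 0.96, at means of 0.760 and 1.47 CPM, and did not pass (edgeR adjusted p = 0.146). Cd68 (0.032), Mrc1 (0.028), Cd163 (-0.17) and Scara3 (-0.63) did not pass either.

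The list of 16 genes for TAM receptors covered processing of the ligands, shedding of the receptors and TAM signalling. The suppressors of cytokine signalling Socs1 (0.47, edgeR adjusted p = 0.331) and Socs3 (0.21, 0.665) did not pass, nor did the sheddases Adam10 (0.051) and Adam17 (0.19) or Ggcx (0.096), the carboxylase that modifies Gas6 and protein S. The median of the 16 genes was 0.12. None of the 16 genes of the engulfment machinery passed (edgeR; 3 had an unadjusted p under 0.05, where 12% of all genes did), and their median was 0.00014. Rac2, a small GTPase of haematopoietic cells, had the smallest p in that list (log2 fold change 0.21, edgeR adjusted p = 0.335). None of 12 lipid efflux and nuclear receptor genes passed by edgeR (3 had an unadjusted p under 0.05, against the same 12%), with a median of 0.072. In that list Scd1, a fatty acid desaturase, had the smallest p (-0.40, edgeR adjusted p = 0.144), and it passed without EYFP 3 (-0.50, edgeR adjusted p = 0.0282), with no filter (0.0340) and with DESeq2 (0.0243).

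**Figure D5:**
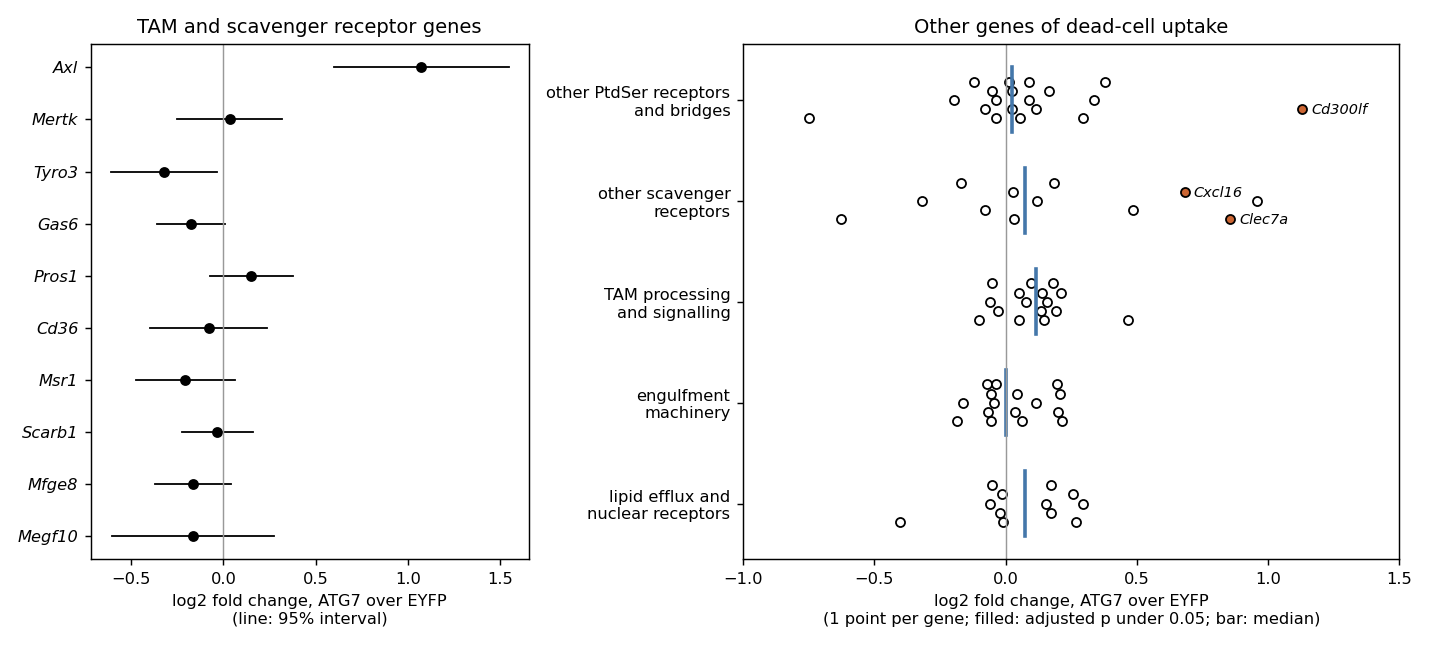
Log2 fold change of ATG7 over EYFP (horizontal axes) for the 10 genes with 95% intervals (left) and for 75 other genes of dead-cell uptake in 5 lists (right), with filled points for an adjusted p under 0.05 and bars for list medians. Axl, at 1.07, lies apart from the other 9 genes, which span -0.32 to 0.15, and the filled points are Cd300lf, Cxcl16 and Clec7a.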

How the data were processed

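The authors deposited raw counts per Ensembl gene, 1 column for each of 7 libraries, all matched by name. Per the submitters' processing notes, fastp 0.20.1, HISAT2 2.0.5 and featureCounts were used with GRCm38 (mm10). The annotation release, strand setting and handling of shared reads are not given in the sources used here. All 37 mitochondrial genes are listed at 0. Symbols and positions came from GENCODE M21 (55141 of 55401 identifiers).

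ATG7 and EYFP were compared with edgeR 4.0.16 in R 4.3.3 (quasi-likelihood test, robust, TMM factors, filterByExpr, no covariate) on all 7 libraries, with Benjamini-Hochberg adjustment over 19199 genes. SE was derived from the log2 fold change and its F statistic, and 95% intervals use the fitted degrees of freedom. Log2 CPM used a prior count of 2. The code was tested on simulated data. A floor of 3 counts is 0.0543 to 0.0835 CPM, for counting error only. The text names all 10 genes, for each list up to 4 passing genes by smallest p (where none passed, the 1 gene ranked first), and the 5 genes nearest to Axl and to Mertk; other list genes were named after their values were seen. 1 further gene of the planned lists, which had passed the test, is not reported here. It was left out after the results were known and enters none of their counts, medians or plots, so these do not describe the planned lists in full. The members and lists were chosen with earlier results of these data known, and the promoter motifs after the data were seen. Alternatives were other scalings and filters, DESeq2 1.42.0, limma-voom 3.58.1, a replicate block and leaving out each library.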

Additional observations from a re-analysis of the deposited data

How the results depend on the processing

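Over 15 alternatives each, the 10 genes gave 141 values with the same direction and call, 3 that gained a call, all Axl, and 6 that changed sign. Axl passed with a mean CPM of at least 1 (edgeR adjusted p = 0.0483), with the DESeq2 Wald test (3.77e-06) and without EYFP 3 (0.0107), so that 1 of the 10 genes was called in those 3 settings, where 1.02%, 3.03% and 0.871% of all genes were, and 0 in the others; leaving out each library gave 0 to 1. Leaving out each library moved Mertk between -0.066 (without EYFP 2) and 0.12, with -0.035 without ATG7 2. Cd36 ran from -0.18 to 0.039 (without EYFP 2), with 0.032 without ATG7 1, and Scarb1 from -0.13 to 0.026 (without ATG7 1), with 0.0038 without ATG7 2. Atg7 ran from -0.083 to 0.035. The genes nearest to Mertk ran from -0.040 to 0.12 (Dip2b), -0.061 to 0.14 (Nlrp3), -0.028 to 0.11 (Ctc1), -0.019 to 0.16 (Sall3) and -0.059 to 0.034 (Zcchc14). The log2 ratio of Axl to Mertk differed by 0.77 to 1.24 without single libraries, and that of Gas6 to Pros1 by -0.42 to -0.25. As a linear ratio, that of Axl to Mertk differed by 0.154 (exact permutation p = 0.0286, not adjusted).

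Over all genes, 145 were called (132 higher, 13 lower), against 297 (234 and 63) with no filter, 582 (406 and 176) with DESeq2 and 25 lower with limma-voom. The share that was higher was 91.0%, 78.8% with no filter and 69.8% with DESeq2. Leaving out single libraries gave 28 to 277 calls, 26 to 209 higher and 2 to 68 lower. Of the 75 genes in the pathway lists 3 were called, 6 with DESeq2, and 0 to 3 without single libraries; the cause was not tested. With the replicate number as a block, 0 genes were called (1256 at an unadjusted p under 0.05), 0 higher, 0 lower and 0 in the pathway lists, and Axl was at 1.11 (edgeR adjusted p = 0.266). The samples share only a number: same-numbered libraries correlated at -0.061, -0.18 and 0.066 in their deviations from the group means, and not every library correlated best with its own number. Precision is limited by 7 libraries, and for Megf10 by 114 to 195 counts.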

Other observations

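Outside the 10 genes, 4 of the 12 genes of lipid efflux and lipid sensing had groups that did not overlap, where 11.2% of all genes did not, and these were chosen once their values had been seen. Abca1, a cholesterol exporter, was at 507 CPM in EYFP and 621 CPM in ATG7, a log2 fold change of 0.29. Abcg1, which also exports cholesterol, was at 128 and 154 CPM (0.27), and Mylip, which promotes loss of the lipoprotein receptor, was at 296 and 334 CPM (0.17). For Mylip the nearest libraries of the groups were close, EYFP 3 at 327.5 and ATG7 1 at 328.1 CPM. Scd1 was at 114 and 85.9 CPM (-0.40). None of the 4 passed, with an edgeR adjusted p of 0.182 for Abca1, 0.219 for Abcg1, 0.541 for Mylip and 0.144 for Scd1. Scd1 passed with no filter (edgeR adjusted p = 0.0340), with DESeq2 (0.0243) and without EYFP 3 (edgeR adjusted p = 0.0282), and Abca1 passed with DESeq2 (0.0191), which called 3.03% of all genes. Without EYFP 3 the log2 fold changes were 0.29 for Abca1, 0.29 for Abcg1 and 0.22 for Mylip. The nuclear receptors Nr1h3 and Nr1h2 had log2 fold changes of 0.26 and -0.011 (edgeR adjusted p = 0.615 and 0.968). Of the 12 genes, 6 had positive and 6 had negative fitted values, with Lpcat3 at -0.052 and Abca7 at -0.060. The part of these receptors in the values was not tested.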
